A study of Mus musculus with 16 samples.

Results

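The genes described here are 36 genes of the cell's protein stress programmes, taken by symbol from a count table of 55385 genes measured in mouse cerebral cortex. They form 4 arms: 11 genes of the integrated stress response, 4 sensors and transcription factors of the unfolded protein response, 13 chaperones and folding factors of the endoplasmic reticulum (ER), and 8 heat shock genes. All 36 passed the filter on low counts, which kept 17555 genes for testing. Ddit3 has another row in the table, with no count in any library, which was left aside. Polyadenylated RNA was sequenced from the cortex of 16 mice aged 9 months, with 4 mice, 2 females and 2 males, in each of 4 groups: 5xFAD-Dp16, 5xFAD, Dp16 and wild-type C57BL/6J. In Dp16 mice a stretch of chromosome 16 with the counterparts of many human chromosome 21 genes is present in an extra copy. 5xFAD mice carry mutant human transgenes of familial Alzheimer's disease, driven by the Thy1 promoter, which is active mainly in neurons, and form amyloid plaques; 5xFAD-Dp16 mice carry both genotypes. The tissue is whole cortex, so that fewer cells of a type and less RNA per cell cannot be told apart.

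When unfolded proteins gather in the ER, the membrane sensors encoded by Eif2ak3 (PERK), Ern1 (IRE1) and Atf6 are activated. PERK and related kinases phosphorylate the translation factor eIF2α, which lowers protein synthesis in general while favouring translation of Atf4, whose protein switches on genes for amino acid supply and further stress factors; IRE1 splices Xbp1 mRNA; and cleaved ATF6 and spliced XBP1 raise the ER chaperones. Misfolded protein in the cytosol instead releases the heat shock factor HSF1, which binds repeats of a short GAA-containing element in heat shock promoters. Much of this signalling acts on proteins, on translation and on splicing, which read counts per gene do not show. The counts show the abundance of the sensors and of the target genes.

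Promoter sequences are shown here for some of the members that hold an element known to act in one of these arms. Not every member holds one. RefSeq (GRCm38.p6) lists a promoter, from 250 bases before to 50 bases after a transcription start, for 31 of the 36 genes. The ER stress element, bound by ATF6, was searched on both strands as CCAAT and CCACG with 9 bases between them. It was found in 6 of the 11 ER chaperone genes that have a listed promoter, and in 0.119% of all 32851 listed promoters. No promoter of the other arms held it. The matches are aligned below in the direction in which CCAAT comes first, 5′ to 3′, with the motif in capitals; the strand given is the one printed.
Hspa5 (chr2:34772009-34772059, + strand): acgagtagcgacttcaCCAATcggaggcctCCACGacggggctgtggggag
Hsp90b1 (chr10:86705622-86705672, − strand): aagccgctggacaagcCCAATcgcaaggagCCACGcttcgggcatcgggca
Hsp90b1 (chr10:86705517-86705567, + strand): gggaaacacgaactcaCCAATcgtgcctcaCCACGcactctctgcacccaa
Calr (chr8:84847059-84847109, + strand): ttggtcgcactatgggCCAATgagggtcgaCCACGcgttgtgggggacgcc
Canx (chr11:50325784-50325834, − strand): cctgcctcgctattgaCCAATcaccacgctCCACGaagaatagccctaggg
Pdia6 (chr12:17266475-17266525, + strand): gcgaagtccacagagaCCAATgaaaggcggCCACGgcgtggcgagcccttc
Creld2 (chr15:88819504-88819554, − strand): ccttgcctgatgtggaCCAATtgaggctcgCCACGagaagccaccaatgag

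The heat shock element, searched on both strands as TTCNNGAA or GAANNTTC, was found in 5 of the 6 heat shock genes with a listed promoter, namely Hspa1a, Hspa1b, Hspb1, Hsph1 and Bag3. It is a short motif that 15.1% of all listed promoters hold, and it was also found in Asns, Atf5 and Eif2ak3. In Bag3 it lay after the transcription start and is not printed. Hspb1 held another match at −97 to −90 from the start, and Hsph1 further ones after the start. These are not printed either, nor are the matches in Asns, Atf5 and Eif2ak3. The sequences show that Hspa1a and Hspa1b are alike around the element; 98.7% of the bases of their listed promoters were equal. Of the 150-base windows of the Hspa1a transcript, 38.1% also occur in Hspa1b. Of those of the Hspa1b transcript, 40.5% occur in Hspa1a. The count of reads for each of these near-identical genes is therefore uncertain.
Hspa1a (chr17:34972237-34972276, − strand): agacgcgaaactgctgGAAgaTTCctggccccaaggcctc
Hspa1b (chr17:34959319-34959358, − strand): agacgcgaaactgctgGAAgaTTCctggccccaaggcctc
Hspb1 (chr5:135887786-135887825, + strand): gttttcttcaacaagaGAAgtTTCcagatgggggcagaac
Hsph1 (chr5:149636346-149636385, − strand): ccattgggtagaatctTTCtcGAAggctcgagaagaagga

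Genes switched on by ATF4 often carry a composite element of C/EBP and ATF sites, searched on both strands as TGATGNAA. It was found in Asns, Atf3, Chac1 and Trib3 of the 11 integrated stress response genes and in Herpud1 among the chaperones, and in 3.97% of all listed promoters. The cyclic AMP type core TGACGTCA was found in Ppp1r15a alone and in 1.79% of all promoters. Atf3 is the gene that the results below turn on. The 250 bases before its start (chr1:191183334-191183583, − strand, in the direction of the gene) follow, with the element in capitals on the opposite strand, at −110 to −103 from the start. A match is a description of these letters and shows no binding.
Atf3: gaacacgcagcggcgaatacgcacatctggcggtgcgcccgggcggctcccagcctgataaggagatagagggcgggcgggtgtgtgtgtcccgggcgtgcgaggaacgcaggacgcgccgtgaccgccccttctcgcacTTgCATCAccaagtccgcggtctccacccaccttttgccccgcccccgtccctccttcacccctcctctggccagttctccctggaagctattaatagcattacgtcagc
Asns (chr6:7693210-7693248, − strand): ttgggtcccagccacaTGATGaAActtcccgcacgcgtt
Chac1 (chr2:119351033-119351072, − strand): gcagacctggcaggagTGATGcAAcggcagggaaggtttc
Herpud1 (chr8:94386301-94386340, − strand): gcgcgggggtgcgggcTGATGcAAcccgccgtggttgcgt

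Library totals were 16874481 to 22912168 counts. Thy1, whose promoter drives the transgenes, averaged 2000 ± 168 CPM in 5xFAD-Dp16, 1700 ± 200 in 5xFAD, 888 ± 120 in Dp16 and 810 ± 62.8 in wild-type (SD, n = 4 each; CPM is the count scaled by TMM-normalized library size), so the transgene labels matched the libraries. All 8 neuron, 8 astrocyte and 8 oligodendrocyte markers had counts in every group. Choroid plexus markers, a sign of neighbouring tissue, summed to 25.9 to 2310 CPM in 5xFAD-Dp16, 33.9 to 653 in 5xFAD, 37.1 to 1300 in Dp16 and 26.3 to 335 in wild-type. The summed level of 8 microglia markers was 634 to 1260 CPM in 5xFAD-Dp16, 1230 to 1760 in 5xFAD, 426 to 499 in Dp16 and 446 to 584 in wild-type. Long and short genes were not represented alike in all libraries. For each library, log2 CPM minus the gene's mean over the 16 libraries was fitted on log2 gene length. The slope, relative to the average library, was −0.421 in wild-type replicate 3 and between −0.175 and 0.269 in the other 15 libraries. Results are therefore given from edgeR's quasi-likelihood test with group and sex as terms, called the edgeR fit below. Where it changes a call, results are also given with the length slope of each library as a further term.

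Per gene length, the stress genes spanned a wide range in this tissue. Hspa8, the constitutive cytosolic HSP70, was the most abundant at 1080 ± 199 RPKM (reads scaled by gene length and library total; SD over all 16 libraries), followed by the ER calcium-binding chaperone Calr (calreticulin) at 334 ± 50.1 RPKM and by the cytosolic chaperone Hsp90aa1 at 210 ± 20.4 RPKM. Among integrated stress response genes the transcription factor Atf4 was highest, at 131 ± 16 RPKM, and the pseudokinase gene Trib3 lowest, at 0.333 ± 0.191 RPKM. Of the sensor arm, Xbp1 was highest at 33.3 ± 6.33 RPKM and Ern1 lowest at 0.639 ± 0.206 RPKM. The secreted ER factor Creld2, at 12.6 ± 2.50 RPKM, was the lowest of the ER arm. The inducible HSP70 genes Hspa1a and Hspa1b were at 2.68 ± 0.834 and 2.37 ± 0.826 RPKM, the lowest of the heat shock arm as counted. Hspa8 therefore stood above every other member in these libraries, and its lowest library, at 857 RPKM, lay above the highest library of Calr, at 419 RPKM.

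**Figure D1:**
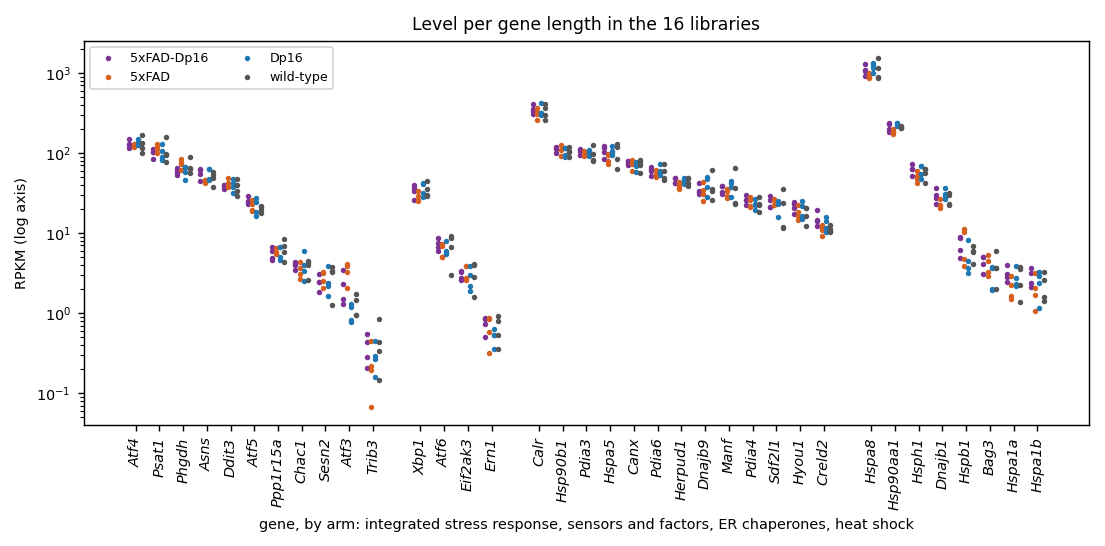
Level per gene length (RPKM, log axis) of the 36 genes, ordered by mean within each arm, with 1 point per library and 4 libraries per group (5xFAD-Dp16, 5xFAD, Dp16, wild-type from left to right). The arms run from 131 to 0.333 RPKM in the integrated stress response, 33.3 to 0.639 among the sensors and factors, 334 to 12.6 among ER chaperones and 1080 to 2.37 in the heat shock arm.

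Of the 36 genes, 1 was called in any of the 9 comparisons of the edgeR fit without the length slope. Atf3, a transcription factor gene that is induced early by many stresses, rose with the 5xFAD transgenes. Averaged over both backgrounds (with and without Dp16), its log2 fold change was 1.16 ± 0.25 (SE; 95% interval 0.63 to 1.69; edgeR quasi-likelihood test, Benjamini-Hochberg adjusted p = 0.0171). The other 35 genes were not called in that comparison, in which 2.18% of all genes tested were called.

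Atf3 was at 4.8, 3.22, 2.78 and 7.25 CPM in the 5xFAD-Dp16 libraries and at 4.38, 7.10, 8.38 and 8.60 CPM in the 5xFAD libraries. In the Dp16 libraries it was at 1.62, 1.73, 2.78 and 2.83 CPM, and in the wild-type libraries at 2.00, 3.10, 4.35 and 1.97 CPM. All 4 5xFAD libraries thus lay above all 4 wild-type libraries, the nearest being 4.38 against 4.35 CPM. The 5xFAD-Dp16 libraries overlapped the Dp16 libraries, with 2.78 CPM in the lowest 5xFAD-Dp16 library against 2.83 CPM in the highest Dp16 library. They also overlapped the wild-type libraries, with 2.78 and 3.22 CPM against 4.35 CPM in the highest wild-type library. How many of all genes tested separate groups as Atf3 separated 5xFAD from wild-type, here or below, was not counted. These levels rest on 54 to 146 reads per library in 5xFAD-Dp16, 92 to 196 in 5xFAD, 36 to 62 in Dp16 and 34 to 72 in wild-type.

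Taken pair by pair, the Atf3 difference missed the threshold. The log2 fold change was 1.34 ± 0.35 for 5xFAD against wild-type (edgeR adjusted p = 0.085) and 0.97 ± 0.35 for 5xFAD-Dp16 against Dp16 (adjusted p = 0.732). With the length slope as a term the values were 1.41 ± 0.27 (adjusted p = 0.00221) and 1.16 ± 0.29 (adjusted p = 0.0467), and the average over both backgrounds was 1.29 ± 0.20 (adjusted p = 0.000133). That fit called 5.51%, 1.22% and 6.17% of all genes in the same 3 comparisons. For 5xFAD-Dp16 against wild-type Atf3 was not called, either without the slope or in any of 26 alternatives, the slope among them. Its log2 fold change there ran from 0.36 to 0.88 over the alternatives. The 5xFAD-Dp16 libraries averaged 4.51 ± 2.02 CPM and the 5xFAD libraries 7.12 ± 1.94 CPM, a log2 difference of −0.71 ± 0.34 (95% interval −1.44 to 0.02; adjusted p = 1.00) that was not called. Whether the 5xFAD effect on Atf3 differed between backgrounds was tested by the interaction, at −0.37 ± 0.50 (adjusted p = 1.00), which was not called either.

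The average-over-backgrounds call for Atf3 was narrow. It was lost without Dp16 replicate 2 (log2 fold change 1.08, edgeR adjusted p = 0.0519), without 5xFAD-Dp16 replicate 4 (1.02, adjusted p = 0.0504) and without 5xFAD replicate 4 (1.07, adjusted p = 0.0506). In the same average all 8 microglia markers were called higher, with a median log2 fold change of 1.06, and 2 of 8 astrocyte markers. The part of these cells in the Atf3 difference was not tested. The summed level of 8 immediate early genes, another sign of recent activity or handling, was 359 to 673 CPM in 5xFAD-Dp16, 394 to 792 in 5xFAD, 353 to 759 in Dp16 and 335 to 946 in wild-type, and none of them was called in that average.

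**Figure D2:**
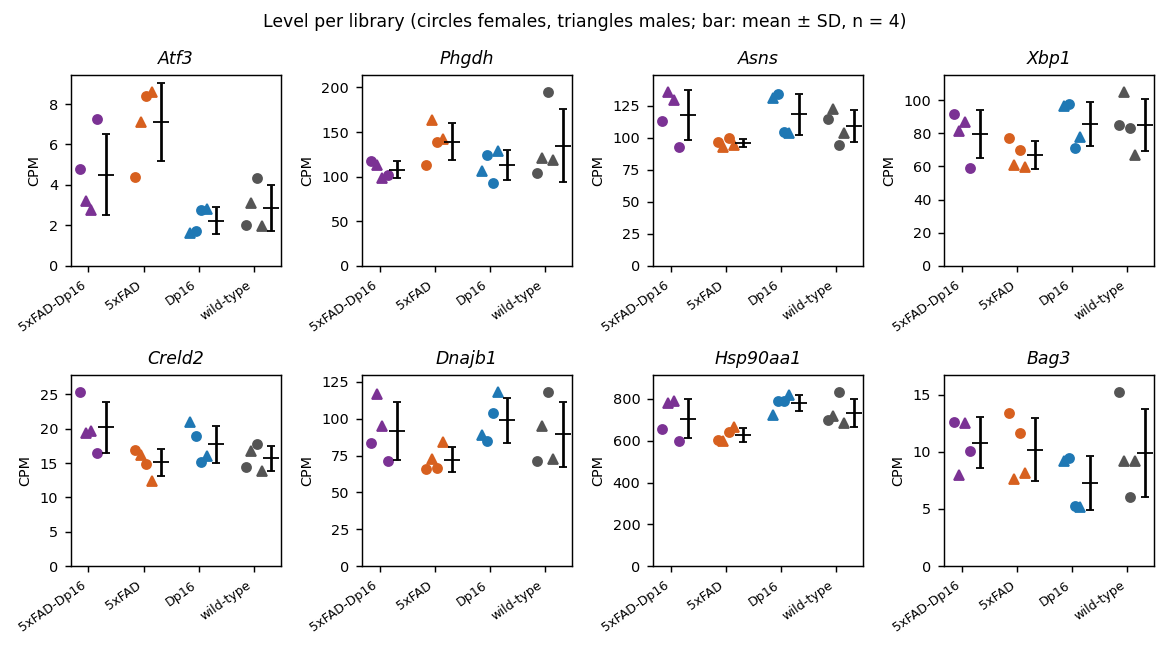
CPM of 8 stress genes in each library, by group (5xFAD-Dp16, 5xFAD, Dp16, wild-type), with circles for females, triangles for males and the mean ± SD of 4 libraries beside them. Atf3 lies at 4.38 to 8.60 CPM in 5xFAD and at 1.97 to 4.35 CPM in wild-type, and Hsp90aa1 at 600 to 665 CPM in 5xFAD and at 684 to 832 CPM in wild-type.

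The other 10 integrated stress response genes did not pass the test in any comparison of the edgeR fit without the length slope. Atf4, which heads this arm, averaged 221 ± 28.4 CPM in 5xFAD-Dp16, 214 ± 12.4 in 5xFAD, 242 ± 22.1 in Dp16 and 232 ± 71.9 in wild-type (SD, n = 4 each), and all 4 groups overlapped. Ddit3, which encodes the pro-apoptotic factor CHOP, averaged 33.4 ± 2.46, 37.8 ± 4.90, 36 ± 7.04 and 34.5 ± 10.1 CPM in the same order of groups. Trib3, which rests on few reads, ranged from 0.411 to 1.12 CPM in 5xFAD-Dp16, 0.132 to 0.917 in 5xFAD, 0.347 to 0.875 in Dp16 and 0.294 to 1.99 in wild-type. The 95% interval of its 5xFAD average ran from −1.29 to 0.56 on the log2 scale, so only a large change could have been seen at this depth. Atf5, another ATF4-related factor, averaged 49.3 ± 4.55 CPM in 5xFAD-Dp16, 43.1 ± 6.09 in 5xFAD, 43.5 ± 9.06 in Dp16 and 41.1 ± 2.33 in wild-type.

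The amino acid genes of this arm had differences of both signs with Dp16. Phgdh, the first enzyme of serine synthesis, was at 118, 113, 98.0 and 102 CPM in 5xFAD-Dp16 and at 113, 163, 139 and 142 CPM in 5xFAD. It was at 106, 124, 93.2 and 129 CPM in Dp16 and at 104, 121, 195 and 119 CPM in wild-type. Wild-type replicate 3 stood far above the other 3 wild-type libraries, and the groups with and without Dp16 overlapped. The log2 difference for Dp16 averaged over both backgrounds was −0.31 ± 0.14 (edgeR adjusted p = 1.00), which was not called, and −0.18 without wild-type replicate 3. With the length slope as a term and all libraries it was −0.31 ± 0.07 and was called (adjusted p = 0.0405), in a fit that called 1.15% of all genes. In Dp16 against wild-type alone the difference was −0.25 ± 0.19, and 0.000944 without wild-type replicate 3, so both values leaned on this library. In the Dp16 average without the slope, astrocyte, microglia and oligodendrocyte markers had median log2 differences of −0.21, −0.375 and −0.23, and neuron markers 0.06. None of these markers was called there, and their part in the Phgdh values was not tested.

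Asns, which makes asparagine, was at 113, 136, 130 and 92.6 CPM in 5xFAD-Dp16, 96.5, 92.7, 100 and 94.2 in 5xFAD, 131, 134, 105 and 104 in Dp16 and 115, 123, 94.3 and 104 in wild-type. The 5xFAD libraries were close together and the 5xFAD-Dp16 libraries ran across them. The difference between 5xFAD-Dp16 and 5xFAD was 0.29 ± 0.15 on the log2 scale (95% interval −0.02 to 0.60) and was not called. Psat1, the next enzyme of serine synthesis, averaged 287 ± 33.4 CPM in 5xFAD-Dp16, 333 ± 41.5 in 5xFAD, 303 ± 70.4 in Dp16 and 329 ± 144 in wild-type, the last with 542 CPM in replicate 3 against 223 to 277 CPM in its other libraries. Chac1, which degrades glutathione, averaged 6.36 ± 0.536, 5.58 ± 1.15, 6.41 ± 2.22 and 6.51 ± 1.77 CPM in 5xFAD-Dp16, 5xFAD, Dp16 and wild-type. It was the member of smallest p between the sexes, with a log2 difference of 0.39 ± 0.16 for females against males that was not called (edgeR adjusted p = 1.00). Sesn2 and the eIF2α phosphatase subunit gene Ppp1r15a averaged between 8.27 and 10.2 CPM and between 16 and 19.1 CPM over the groups.

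The 4 sensors and factors were not called in any comparison. Xbp1 was at 91.6, 81.5, 86.9 and 59.1 CPM in 5xFAD-Dp16, 77.3, 60.6, 69.9 and 59.7 in 5xFAD, 96.2, 97.9, 71.2 and 77.8 in Dp16 and 85.1, 105, 83.1 and 67.2 in wild-type. The 5xFAD libraries sat at the low end but overlapped every other group. The log2 difference for 5xFAD against wild-type was −0.35 ± 0.18 (95% interval −0.73 to 0.03; edgeR adjusted p = 0.767), and −0.19 without wild-type replicate 2. Ern1 averaged 5.86 ± 1.27 CPM in 5xFAD-Dp16, 5.28 ± 2.06 in 5xFAD, 4.18 ± 0.924 in Dp16 and 5.39 ± 1.92 in wild-type. Eif2ak3 averaged 14.2 ± 1.81, 15.5 ± 3.27, 13.2 ± 3.77 and 15.2 ± 4.91 CPM, and Atf6 51.3 ± 7.83, 43.5 ± 8.30, 45.5 ± 7.05 and 49.7 ± 17.9 CPM, in 5xFAD-Dp16, 5xFAD, Dp16 and wild-type. Splicing of Xbp1, the readout of IRE1, is not visible in counts per gene and was not measured here.

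Of the 4 arms, the ER chaperones had the smallest median standard error, 0.18 on the log2 scale for 5xFAD against wild-type. All 13 had a 95% interval within a 2-fold change in either direction in each of the 8 comparisons other than the interaction, and none was called. Hspa5, the master ER chaperone BiP, was at 438, 440, 385 and 302 CPM in 5xFAD-Dp16, 350, 275, 364 and 290 in 5xFAD, 370, 457, 373 and 405 in Dp16 and 312, 440, 570 and 235 in wild-type. The wild-type libraries held both the highest and the lowest value. Calr averaged 753 ± 85.4, 683 ± 95.4, 735 ± 108 and 758 ± 219 CPM in 5xFAD-Dp16, 5xFAD, Dp16 and wild-type, and the ER member of the HSP90 family Hsp90b1 averaged 309 ± 20.7, 294 ± 43.8, 294 ± 29.8 and 301 ± 20.0 CPM.

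Creld2 had the smallest p of the members for Dp16 averaged over both backgrounds. It was at 25.3, 19.4, 19.6 and 16.4 CPM in 5xFAD-Dp16, 16.9, 16.1, 14.9 and 12.4 in 5xFAD, 21.0, 18.9, 15.1 and 16 in Dp16 and 14.4, 16.7, 17.7 and 13.9 in wild-type. The 5xFAD-Dp16 libraries lay mostly above the 5xFAD libraries, with 16.4 CPM in the lowest 5xFAD-Dp16 library against 16.9 in the highest 5xFAD library. The log2 difference for Dp16 averaged over both backgrounds was 0.30 ± 0.12 (95% interval 0.04 to 0.56) and that for 5xFAD-Dp16 against 5xFAD was 0.42 ± 0.17, and neither was called (edgeR adjusted p = 1.00 for each). Without 5xFAD-Dp16 replicate 1 the second of these was 0.28. The remaining ER members were the folding enzymes Pdia3, Pdia4 and Pdia6, the lectin chaperone Canx, the co-chaperones Dnajb9 and Sdf2l1, the degradation factor Herpud1, the secreted factor Manf and the large chaperone Hyou1. Their log2 fold changes ran with those above from −0.32 to 0.18 for 5xFAD against wild-type and from −0.09 to 0.18 for Dp16 against wild-type.

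None of the 8 heat shock genes was called. Dnajb1, an HSP40 co-chaperone, was at 83.8, 117, 95.1 and 71.1 CPM in 5xFAD-Dp16, 65.8, 72.8, 66.7 and 83.9 in 5xFAD, 89.1, 84.6, 104 and 118 in Dp16 and 71.5, 95.2, 118 and 73.0 in wild-type. The 5xFAD values were low and every Dp16 library lay above them, while 5xFAD overlapped both other groups. For 5xFAD against wild-type its log2 difference was −0.32 ± 0.18 (95% interval −0.71 to 0.08), and −0.10 without wild-type replicate 3, whose 118 CPM was the highest of that group.

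Hsp90aa1 was at 656, 781, 789 and 597 CPM in 5xFAD-Dp16, 601, 600, 643 and 665 in 5xFAD, 724, 788, 792 and 819 in Dp16 and 697, 717, 832 and 684 in wild-type. All 5xFAD libraries lay below all wild-type libraries, with 665 against 684 CPM at the nearest. The share of all genes tested with such a separation was not counted. The log2 difference was −0.22 ± 0.13 for 5xFAD against wild-type (95% interval −0.51 to 0.06; edgeR adjusted p = 0.868), or −0.14 without wild-type replicate 3, and −0.19 ± 0.09 for 5xFAD averaged over both backgrounds (adjusted p = 0.639). Hspa8 was at 2090 to 3130 CPM in 5xFAD-Dp16, 2070 to 2310 in 5xFAD, 2320 to 3240 in Dp16 and 2010 to 4290 in wild-type, where the highest value was again replicate 3.

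The inducible pair Hspa1a and Hspa1b was summed, because the assignment of reads that fit both is uncertain. How such reads were counted is not stated, and the sum does not restore any that were left out. It reached 16.8 ± 3.65 CPM in 5xFAD-Dp16, 11.7 ± 4.17 in 5xFAD, 15 ± 3.89 in Dp16 and 14.5 ± 5.07 in wild-type. The ranges of the 4 groups overlapped, at 13.2 to 21.8, 7.99 to 17.2, 10.3 to 19.2 and 9.48 to 19.9 CPM. On the opposite strand, Gm20481 overlaps 19.0% of the exon bases of Hspa1a, and the use of strand in counting is not stated in the sources at hand. The small heat shock protein gene Hspb1 averaged 7.25 ± 1.95, 7.69 ± 3.79, 5.00 ± 2.18 and 5.98 ± 0.807 CPM, and the co-chaperone gene Bag3 10.8 ± 2.21, 10.2 ± 2.79, 7.25 ± 2.37 and 9.89 ± 3.84 CPM, in 5xFAD-Dp16, 5xFAD, Dp16 and wild-type. Hsph1, an HSP110 chaperone, averaged 260 ± 38.4, 210 ± 27.7, 254 ± 34.6 and 243 ± 27.1 CPM.

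**Figure D3:**
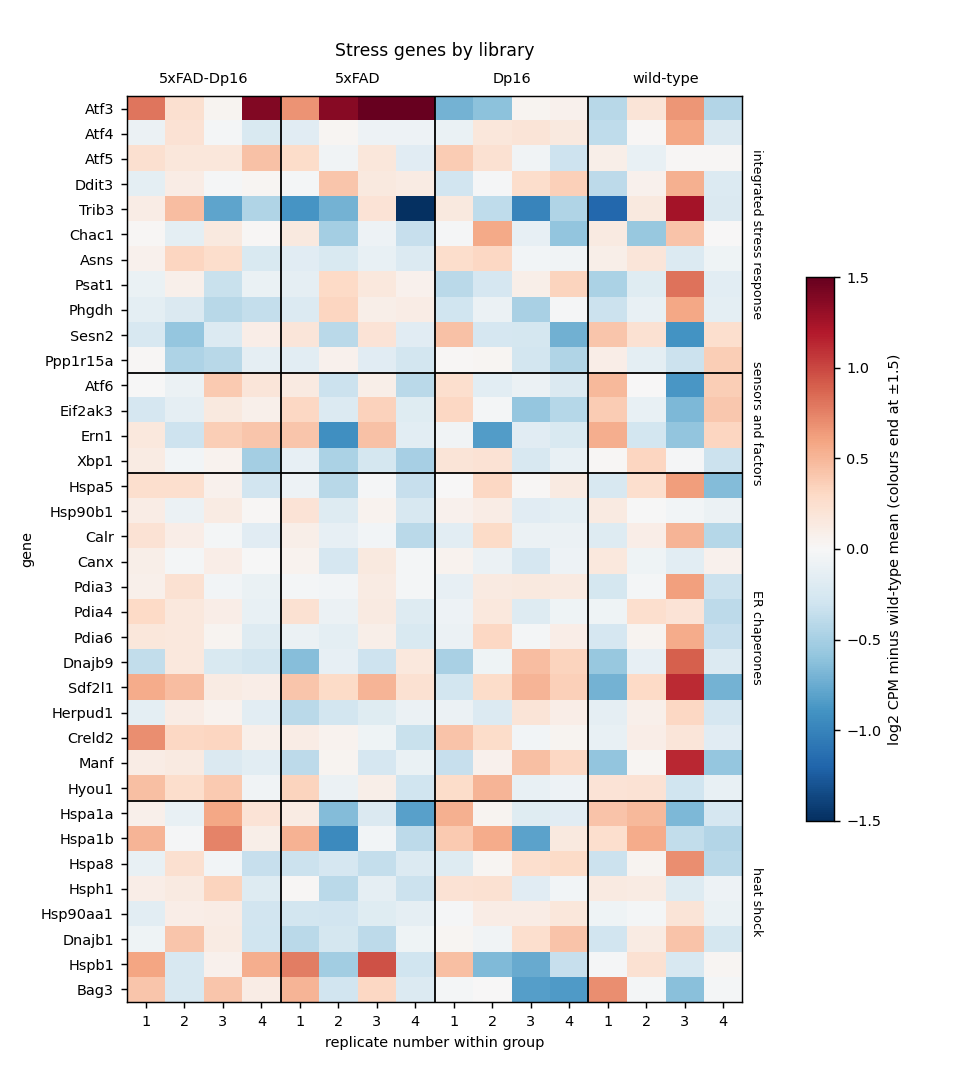
Log2 CPM of the 36 genes minus the wild-type mean of each gene, in each of the 16 libraries (columns, by group and replicate number), with the colour scale ending at ±1.5 and lines between arms and groups. Atf3 is high in the 5xFAD columns, and wild-type replicate 3 stands apart, with the highest of 16 values in 15 genes.

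Calls among the 36 genes are counted here, with the share of all genes called in brackets. With shares this low, few calls would be found in any 36 genes. In the edgeR fit 0 of 36 were called for Dp16 against wild-type (0.0057% of all genes), 0 for 5xFAD against wild-type (1.52%), 0 for 5xFAD-Dp16 against wild-type (0.501%), 0 for 5xFAD-Dp16 against Dp16 (0.387%) and 0 for 5xFAD-Dp16 against 5xFAD (0.0057%). The count was 1 for 5xFAD averaged over both backgrounds (2.18%), 0 for Dp16 averaged over both backgrounds (0.0968%), 0 for the interaction (0%) and 0 for females against males (0.0456%). At an unadjusted p under 0.05 the counts in the same edgeR comparisons were 0 for Dp16 against wild-type (2.2% of all genes), 1 for 5xFAD against wild-type (7.1%), 0 for 5xFAD-Dp16 against wild-type (4.52%), 1 for 5xFAD-Dp16 against Dp16 (3.92%) and 1 for 5xFAD-Dp16 against 5xFAD (3.59%). They were 1 for the 5xFAD average (8.48%), 2 for the Dp16 average (4.29%), 0 for the interaction (1.36%) and 1 for females against males (2.93%). DESeq2 and limma-trend on log2(RPKM + 0.1) each called Atf3 for 5xFAD against wild-type and for the 5xFAD average, and no member in the other 7 comparisons.

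The arms were also described by their medians. For 5xFAD against wild-type the median log2 fold change was −0.22 over the heat shock genes, −0.06 over the ER chaperones, −0.13 over the sensors and −0.12 over the integrated stress response genes, beside −0.05 over all genes tested. Without wild-type replicate 3 these medians were −0.17 over the heat shock genes, 0.02 over the ER chaperones, −0.32 over the sensors and 0.04 over the integrated stress response genes, beside −0.00227 over all genes, so that the ER and integrated stress response medians changed sign with this library. For 5xFAD-Dp16 against 5xFAD, which uses the same 5xFAD libraries on the other side, the medians were 0.27, 0.14, 0.20 and −0.11, beside 0.00456 over all genes tested. There 7 of 8 heat shock, 12 of 13 ER, 3 of 4 sensor and 5 of 11 integrated stress response genes were above 0, beside 8927 of 17555 genes tested. With all 16 libraries, the edgeR fit called no member in either comparison. The interaction was above 0 in 8 of 8 heat shock, 12 of 13 ER, 4 of 4 sensor and 6 of 11 integrated stress response genes. Over all genes tested it was above 0 in 10026 of 17555. The medians were 0.22, 0.14, 0.305 and 0.04 in that order of arms, beside 0.04 over all genes. Without wild-type replicate 3 it was above 0 in 5 heat shock, 8 ER, 4 sensor and 6 integrated stress response genes, with medians of 0.30, 0.02, 0.44 and 0.14. No member was called for the interaction (intervals stayed within 2-fold for 26 of 36).

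With the length slope as a term, which lowered the common spread between libraries (biological coefficient of variation) to 0.16 from 0.292 without it, more members reached an unadjusted p under 0.05. For 5xFAD against wild-type 2 were higher and 7 lower, beside 1694 higher and 1658 lower of 17555 genes tested (19.1% in both directions). Of the lower ones 5 were the heat shock genes Dnajb1, Hspa8, Hsp90aa1, Hspa1a and Hsph1. For 5xFAD-Dp16 against 5xFAD 9 were higher and 3 lower, beside 1146 higher and 1159 lower of all genes (13.1% in both directions). Among the higher ones were Dnajb1 at 0.35 ± 0.09 (edgeR adjusted p = 0.0853), Hsph1, Hspa1a and Hspa8 of the heat shock arm, and Creld2, Herpud1 and Manf of the ER arm. None of these 12 was called, where 0.718% of all genes were. For Dp16 averaged over both backgrounds 7 were higher and 3 lower, beside 1178 higher and 1172 lower of all genes (13.4% in both directions), and of these members Phgdh alone was called. Neuron markers had medians of −0.33 for 5xFAD against wild-type and 0.20 for 5xFAD-Dp16 against 5xFAD on the log2 scale in the edgeR fit without the slope, moving the same way as the heat shock medians; their part in these values was not tested.

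**Figure D4:**
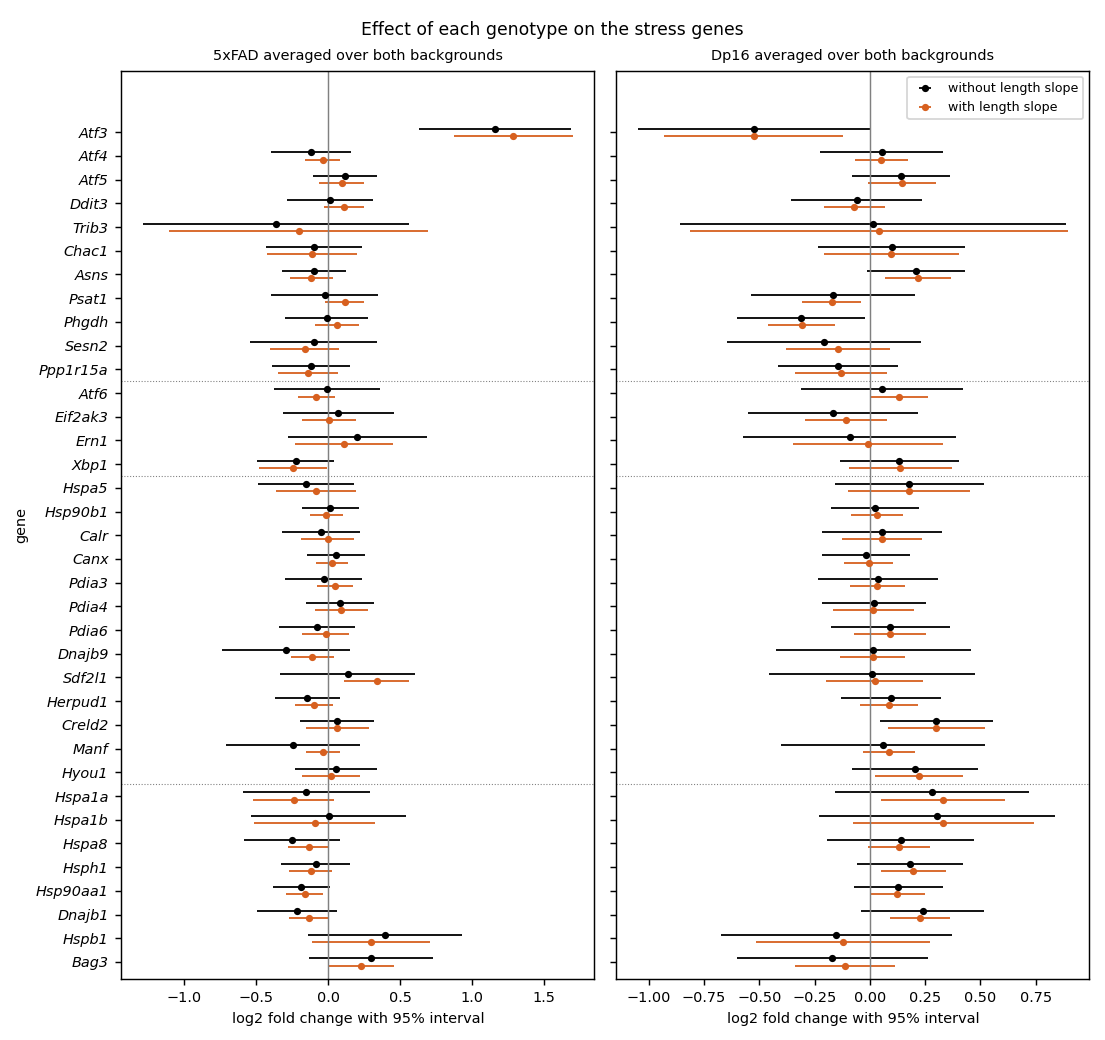
Log2 fold change with its 95% interval for each of the 36 genes, for 5xFAD (left) and Dp16 (right) averaged over both backgrounds, in the fits without (black) and with (orange) the length slope, with dotted lines between arms. Atf3 stands at 1.16 without and 1.29 with the slope for 5xFAD, and Phgdh at −0.31 in both fits for Dp16.

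The wild-type libraries differed more among themselves than those of the other groups, mainly through 1 library. The median coefficient of variation of the 36 genes was 15.1% in 5xFAD-Dp16, 13.6% in 5xFAD, 15.6% in Dp16 and 30.3% in wild-type, and 16.2% in wild-type without replicate 3. That library had the highest of 16 values in 15 members and the lowest in 3. Manf was at 189 CPM there, against 57.2 to 87.8 in the other wild-type libraries, and Atf6 at 25.5 CPM, against 47.1 to 65.5. The arm medians for Dp16 against wild-type depended on this library. With all libraries they were −0.01 over the ER chaperones, −0.12 over the integrated stress response genes, −0.17 over the sensors and 0.05 over the heat shock genes, beside −0.03 over all genes. Without wild-type replicate 3 they were 0.24, 0.06, −0.38 and −0.02 in the same order of arms, beside 0.00473 over all genes.

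**Figure D5:**
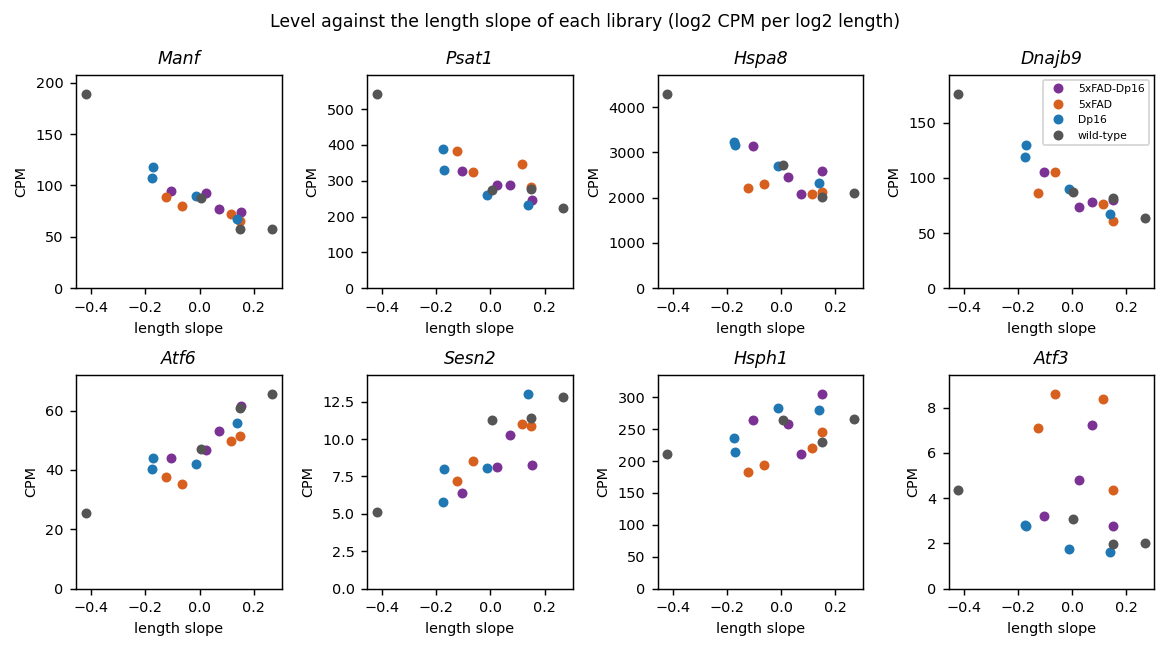
CPM of 8 stress genes against the length slope of each library, with 1 point per library coloured by group. Manf, Psat1, Hspa8 and Dnajb9 are highest in the library of lowest slope (−0.421, wild-type replicate 3), Atf6 and Sesn2 are lowest there, and for Atf3 all 4 5xFAD libraries, at 4.38 CPM or more, lie above all 4 Dp16 libraries, at 2.83 CPM or less.

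Further genes of the same pathways, 94 in 3 wider lists, were examined with the same edgeR fit. Of 29 tested genes of the integrated stress response and its targets, 1 was called higher for 5xFAD against wild-type, where 1.52% of all genes were called, and 1 in the 5xFAD average, where 2.18% were; both were Eif2ak2. In the other 7 comparisons none was called. At an unadjusted p under 0.05, 0 to 3 were higher and 0 to 1 lower there. Counting both directions, 1.36% to 4.52% of all genes reached that p. Eif2ak2 encodes PKR, a kinase of eIF2α that is also induced by interferon. It averaged 6.67 ± 0.913 CPM in 5xFAD-Dp16, 9.21 ± 1.52 in 5xFAD, 4.09 ± 0.960 in Dp16 and 3.57 ± 0.853 in wild-type. Its log2 fold change was 1.36 ± 0.23 for 5xFAD against wild-type (edgeR adjusted p = 0.00427) and 1.03 ± 0.16 in the 5xFAD average (adjusted p = 0.00134). All 5xFAD libraries, at 7.20 CPM or more, lay above all wild-type libraries, at 4.65 CPM or less.

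Of 34 further ER genes, 1 was called higher in the 5xFAD average (2.18% of all genes), and none in the other 8 comparisons. In those 8, 0 to 2 were higher and 0 to 1 lower at an unadjusted p under 0.05. Counting both directions, 1.36% to 7.1% of all genes reached that p. The called gene was Edem1, which extracts misfolded glycoproteins for degradation (log2 fold change 0.73 ± 0.16, edgeR adjusted p = 0.0246). Edem1 averaged 14.1 ± 2.98 CPM in 5xFAD-Dp16, 20.2 ± 3.13 in 5xFAD, 9.89 ± 2.42 in Dp16 and 10.4 ± 2.54 in wild-type. In the 5xFAD average all 8 microglia markers were called higher, with a median log2 fold change of 1.06. The part of these cells in the Eif2ak2 and Edem1 values was not tested. Neither call was checked with libraries left out. Of 30 further heat shock and cytosolic chaperone genes, 0 were called by edgeR in any of the 9 comparisons. At an unadjusted p under 0.05, 1 was lower for 5xFAD against wild-type, 1 in the 5xFAD average and 1 for females against males. Of all 17555 genes tested, 335, 436 and 203 were lower in these comparisons (7.1%, 8.48% and 2.93% in both directions).

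With the length slope as a term, which raised the share of all genes called in the 5xFAD average to 6.17%, 4 of 29, 2 of 34 and 0 of 30 genes of the wider integrated stress response, ER and heat shock lists were called there. Besides Eif2ak2 and Edem1, Cebpg, a partner of ATF4 (0.32 ± 0.08), the cystine transporter gene Slc7a11 (0.37 ± 0.10) and Edem2 (0.31 ± 0.08) were higher, and the glycyl-tRNA synthetase gene Gars (−0.24 ± 0.06) was lower, with edgeR adjusted p of 0.0114 to 0.0327. At an unadjusted edgeR p under 0.05 for 5xFAD against wild-type, 0 of the 30 wider heat shock genes were higher and 11 lower. Of all 17555 genes tested, 1694 were higher and 1658 lower there (19.1% in both directions). For 5xFAD-Dp16 against 5xFAD 6 of the 30 were higher and 0 lower, beside 1146 higher and 1159 lower of all genes (13.1% in both directions). Hspa13, an HSP70 relative that lies on the triplicated segment, averaged 105 ± 22.6 CPM in 5xFAD-Dp16, 59.7 ± 11.2 in 5xFAD, 122 ± 32.9 in Dp16 and 76.5 ± 32.9 in wild-type. In that fit it was higher by 0.84 ± 0.10 for 5xFAD-Dp16 against 5xFAD (edgeR adjusted p = 5.69e-05), by 0.62 ± 0.10 for Dp16 against wild-type (adjusted p = 0.00331, 0.256% of all genes called) and by 0.60 ± 0.10 for 5xFAD-Dp16 against wild-type (adjusted p = 0.00106, 2.06% of all genes called). None of the 36 genes themselves lies on that segment; Sdf2l1, on chromosome 16 at 17130138 to 17132383 (GRCm38), is outside it.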

How the data were processed

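The authors deposited a table of raw read counts per gene and a table of RPKM values for 55385 genes and 16 libraries; per the labels' protocols, RNA was poly-A enriched and libraries were strand-specific and paired-end. HISAT2 2.1.0, HTSeq 0.6.1, SAMtools 1.5, FastQC 0.11.5, bcl2fastq and the build GRCm38 are listed in the submitters' processing notes, with no settings. The deposited RPKM equal the deposited counts rescaled by length and library total.

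From the counts, edgeR 4.0.16 (R 4.3.3) quasi-likelihood tests were run with TMM normalization, filterByExpr (minimum count 10), group and sex as terms over all 16 libraries, and Benjamini-Hochberg adjustment over 17555 genes, with a call below 0.05. Standard errors were derived from the F statistic. The length slope was fitted over genes with mean log2 CPM above 2, the 36 genes included. Alternatives were DESeq2 1.42.0, limma 3.58.1 on log2(RPKM + pseudocount), RLE, no filter, no sex term, fewer groups, a replicate block and each library left out. The test was also run on simulated counts, which held no length slope and no library like wild-type replicate 3. That check therefore does not cover these features of the data.

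The genes and lists were chosen with earlier results of these data known. The text gives values for each called gene, the 4 genes of smallest p per comparison and the most and least abundant gene of each arm; the other genes named with values were chosen after their values were seen. Nothing in the labels describes litters, so p-values measure the spread between these samples. Replicate pairs differed beyond sampling noise (chi-square over its degrees of freedom, 16.4 to 279). Coordinates, exon overlaps and the shared transcript windows are from GENCODE M21 and promoters from RefSeq, both on GRCm38. The names of the deposited tables carry a later GENCODE release, so the gene models that were counted may differ. Protein sequences were not used here.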

Additional observations from a re-analysis of the deposited data

Results flagged for a closer look

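In 5 of 144 sets of 4 libraries (36 genes in 4 groups), 1 library stood apart from the other 3 by Dixon's criterion, which chance alone flags in about 1 in 20 sets. Atf4 was at 209 CPM in Dp16 replicate 1, below 249 to 256 CPM in the other Dp16 libraries. Psat1 was at 542 CPM in wild-type replicate 3, above 223 to 277 CPM. Calr was at 896 CPM in Dp16 replicate 2, above 660 to 694 CPM. Pdia3, a disulfide isomerase gene, was at 292 CPM in 5xFAD replicate 3, above 261 to 264 CPM, and at 248 CPM in Dp16 replicate 1, below 294 to 298 CPM.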

How the results depend on the processing

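For 5xFAD against wild-type, 1 member (Atf3) was called when the length slope was a covariate, when no low-count filter was used, in DESeq2 and with limma-trend on log2(RPKM + 0.1) or log2(RPKM + 1), against 0 in the edgeR fit; leaving out 1 library gave 0 to 1, with 1 without wild-type replicate 3 and 1 without 5xFAD replicate 1. For 5xFAD-Dp16 against Dp16 the length slope gave 1 (Atf3), and for Dp16 averaged over both backgrounds it gave 1 (Phgdh). For 5xFAD averaged over both backgrounds leaving out 1 library gave 0 to 1, and Atf3 was called in 22 of 25 alternatives, at a log2 fold change of 0.76 to 1.29 and adjusted p of 3.74e-05 to 0.0519. Phgdh in Dp16 against wild-type ran from −0.37 to 0.000944 with 1 library left out, and the change of sign came without wild-type replicate 3. The cause was not tested. Of 916 values of named genes under the alternatives, 903 kept their direction and their side of the threshold, 9 passed it, 3 missed it and 1 changed sign. Same-numbered libraries correlated at −0.354 to 0.514 over 24 pairs and 7 of 16 correlated best with their own number. Differences in length slope between libraries enter these correlations, so they cannot decide whether the numbers pair the mice. With the replicate block, 0 members were called for 5xFAD against wild-type and 1 for the 5xFAD average, Atf3 at 1.14 (adjusted p = 0.0168). The intervals and low counts, such as those of Trib3, limit which changes could be seen.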
